A study of Mus musculus with 11 samples.

Results

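Chemokine and chemokine receptor genes were read in liver RNA of 3 genotype groups of mice, by a list of 26 ligands and 8 receptors. Each of the 34 genes had a probe set annotated to its symbol alone, out of 19938 genes measured that way, and where a gene had several such probe sets the one with the highest mean over the 11 arrays was taken. Of the ligands, 15 belong to the CC class, and 11 to the CXC and CX3C classes.

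Chemokines are small secreted proteins, named for the spacing of their first cysteines, that guide leukocytes by binding receptors coupled to inhibitory G proteins. Inflammatory chemokines are induced by inflammatory cytokines and bring in monocytes, neutrophils and effector T cells, while homeostatic ones place cells within tissues. In liver, hepatocytes, sinusoidal endothelium, stellate cells, bile duct cells and Kupffer cells can all make them, and the CCL2-CCR2 and CXCR3 axes are known for their part in liver inflammation and fibrosis.

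Livers came from male mice aged 14 months: 3 arrays of wild type, 4 of a single knockout, Mdr2-KO, and 4 of a double knockout, Mdr2-KO/IL6-KO, whose tissue is labelled tumour-free in both knockout groups. The Abcb4 gene encodes Mdr2, the phospholipid flippase of the hepatocyte's bile canaliculus, whose loss leaves bile toxic to ducts and leads to portal fibrosis. Interleukin 6 drives the hepatic acute-phase response through STAT3. Both knockout groups lack Mdr2, and the double knockout lacks interleukin 6 as well; no group lacking interleukin 6 alone was analysed here. A strain, C57BL/6, is given in the sample labels of wild type only. Sample titles run in a W series for wild type and a BIL series for both knockouts; what the series mean is not stated, and it cannot be told apart from genotype wherever wild type is compared.

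Abcb4 averaged 9.83 ± 0.105 (SD, n = 3) on the log2 scale in wild type, against 7.74 ± 0.194 (SD, n = 4) with Mdr2 alone knocked out and 8.09 ± 0.204 (SD, n = 4) with both, which bears out the Mdr2 labels. The Il6 probe set lay between 1.62 and 2.09 on all 11 arrays and so checks nothing about the second label. Array medians lay between 5.09 and 5.23 on the log2 scale. Markers of hepatocytes, the main cells of the labelled tissue, had summed linear levels of 35174 to 37879 over the 11 arrays. In whole liver, fewer cells of a type and less RNA per cell cannot be told apart.

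A change was called at an adjusted p under 0.05 in a limma model of all 11 arrays, adjusted over the 19938 genes. Against wild type, 1 of the 34 genes rose in Mdr2-KO and 3 rose in Mdr2-KO/IL6-KO, and none fell. The gene that rose in both was Cxcl14, a chemokine of epithelia and fibroblasts. The neutrophil chemokine Cxcl5 and Cxcr4, the receptor for Cxcl12, rose in the double knockout. Among all genes 1.26% were called in the single knockout (0.948% higher) and 4.19% in the double knockout (2.91% higher), and counts of 1 and 3 are too small to set the 34 genes apart from those shares. Between the knockout groups no chemokine gene was called, where 0.00502% of all genes were. Both comparisons with wild type use the same 3 control arrays, and their values are set side by side without being counted as independent.

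**Figure D1:**
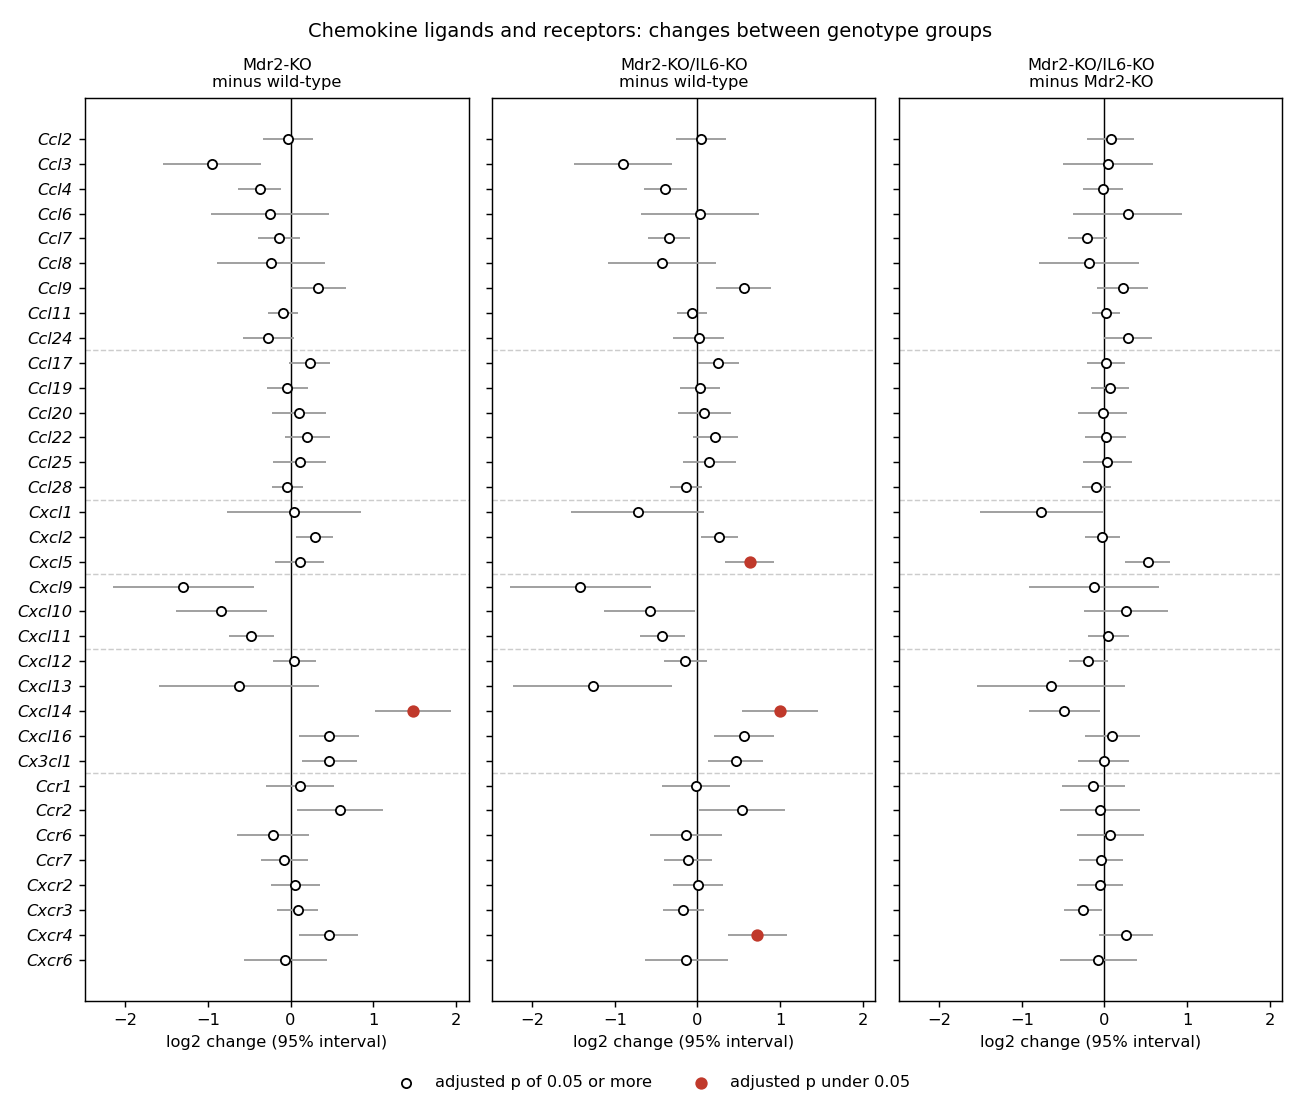
Log2 change of each of the 34 genes (points) with its 95% interval from the limma model (bars) in the 3 comparisons; filled red points were called at an adjusted p under 0.05 and dashed lines separate ligand roles and receptors. Cxcl14 is called in both comparisons with wild type, Cxcl5 and Cxcr4 in that of the double knockout, and no gene between the knockout groups.

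At an unadjusted p under 0.05, 12 of the 34 genes differed in the single knockout, 7 higher and 5 lower, where 9.79% of all genes did, and 16 in the double knockout, 9 higher and 7 lower, where 15.5% did. Comparing the knockouts with each other, 2 were higher and 3 lower at that level, where 4.82% of all genes were past it, 2.78% higher and 2.04% lower. The arrays of 5 genes did not overlap between wild type and the single knockout, 3 higher and 2 lower, where 9.13% of all genes did not, 5.49% higher and 3.64% lower. Those of 10 did not overlap between wild type and the double knockout, 5 higher and 5 lower, where 16.3% of all genes did not, 9.85% higher and 6.44% lower. Of the 34, 2 did not overlap between the knockouts, where 2.51% of all genes did not.

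The median log2 change was 0.01 in Mdr2-KO against wild type, -0.01 in Mdr2-KO/IL6-KO against wild type and -0.01 between the knockout groups, with medians over all genes of -0.01, -0.00056 and 0.01. In each comparison with wild type 17 genes had a positive and 17 a negative change. Changes of at least 1.5-fold were more frequent than among all genes: 6 of 34 in Mdr2-KO against 1.83%, and 7 of 34 in Mdr2-KO/IL6-KO against 3.01%. In the direct comparison of the knockouts 2 of 34 reached that size, Cxcl1 and Cxcl13, against 0.301%. These include genes with a wide spread within groups. The 34 genes were also chosen with earlier results of these data known, so the shares are no test of the family. The median SD of the 34 genes was 0.204 among wild-type arrays, 0.220 among single and 0.200 among double knockouts, and that of all genes 0.110, 0.156 and 0.127.

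Cxcl14 stood out among the ligands. Its protein is made constitutively by epithelial and stromal cells and is known to attract monocytes and dendritic cells. The probe set 10409579 read 6.33, 6.37 and 6.08 on the wild-type arrays, 7.41, 7.19, 8.21 and 8.18 on the single-knockout arrays, and 7.18, 7.19, 7.44 and 7.24 on the double-knockout arrays. Every knockout array lay above every wild-type array, and Mdr2-KO replicates 3 and 4 were the highest of all.

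Cxcl14 rose 2.80-fold in Mdr2-KO (log2 change 1.49 ± 0.21 SE, limma adjusted p = 0.00378) and 2.0-fold in the double knockout (log2 change 1.0 ± 0.21 SE, limma adjusted p = 0.0170). The first call held in all 17 alternatives run. The second ended without wild-type replicate 1 (adjusted p = 0.0522), wild-type replicate 3 (0.0802) or Mdr2-KO/IL6-KO replicate 3 (0.0533), with a log2 change of 0.91 to 1.06 over the alternatives. Between the knockout groups Cxcl14 was lower in the double knockout by 0.48 on average (log2 change -0.48, 95% interval -0.91 to -0.06), which did not pass the threshold over all genes (adjusted p = 0.9995), and the arrays overlapped. Its spread was wider in Mdr2-KO, at an SD of 0.524, than in the double knockout, at 0.121.

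The summed markers of stellate cells and fibroblasts and of bile duct cells were, like Cxcl14, higher in both knockout groups than in wild type. Of 9 stellate and fibroblast markers 6 rose in each knockout group, and their summed linear level was 746 to 909 in wild type, 1250 to 1512 in Mdr2-KO and 1302 to 1757 in Mdr2-KO/IL6-KO. Of 6 bile duct markers measured 4 rose in each, with summed levels of 270 to 300, 472 to 631 and 482 to 628. Called higher among all genes were 0.948% with the single and 2.91% with the double knockout. The sums of both lists kept wild type apart from the knockouts. Single genes whose knockout arrays all lay above wild type made up 5.49% of all genes for the single knockout. For the double knockout they made up 9.85%. Between the knockout groups Cxcl14 averaged 7.75 in the single and 7.26 in the double, where the stellate and fibroblast sum averaged 1412 and 1549. The bile duct sum averaged 546 in the single and 532 in the double knockout. Among Mdr2-KO arrays the stellate and fibroblast sum was highest in replicate 1, at 1512. The bile duct sum was highest in replicates 3 and 4, as Cxcl14 was. Lrat (6.99, 6.96 and 7.10), Acta2 (6.42, 6.56 and 6.47) and Des (5.20, 5.30 and 5.46) had the smallest mean changes of the 9. The part of both lists in the change of Cxcl14 was not tested.

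The window upstream of the Cxcl14 start is shown because this gene carries the clearest change of the family. It spans the 250 bases before the RefSeq start at chr13:56296552-56296801 (GRCm38.p6, minus strand), written 5′ to 3′ along the gene, with capitals for matches to the letters of a GAS element (TTC, any 3 bases, GAA) or an ISRE (GAAA, any 2 bases, GAAA), on either strand, both known from interferon-responsive genes.
Cxcl14: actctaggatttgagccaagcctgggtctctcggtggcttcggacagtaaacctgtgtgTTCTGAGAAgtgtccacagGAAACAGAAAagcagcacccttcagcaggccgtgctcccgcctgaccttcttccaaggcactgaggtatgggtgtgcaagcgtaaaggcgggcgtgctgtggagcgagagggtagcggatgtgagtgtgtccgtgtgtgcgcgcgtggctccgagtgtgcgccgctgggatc
The GAS letters lie 191 to 183 bases before the start and the ISRE letters 172 to 163. Of 27025 genes with such a window, 8.13% hold the GAS letters and 3.46% the ISRE letters on either strand. A match is a description of letters only.

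**Figure D2:**
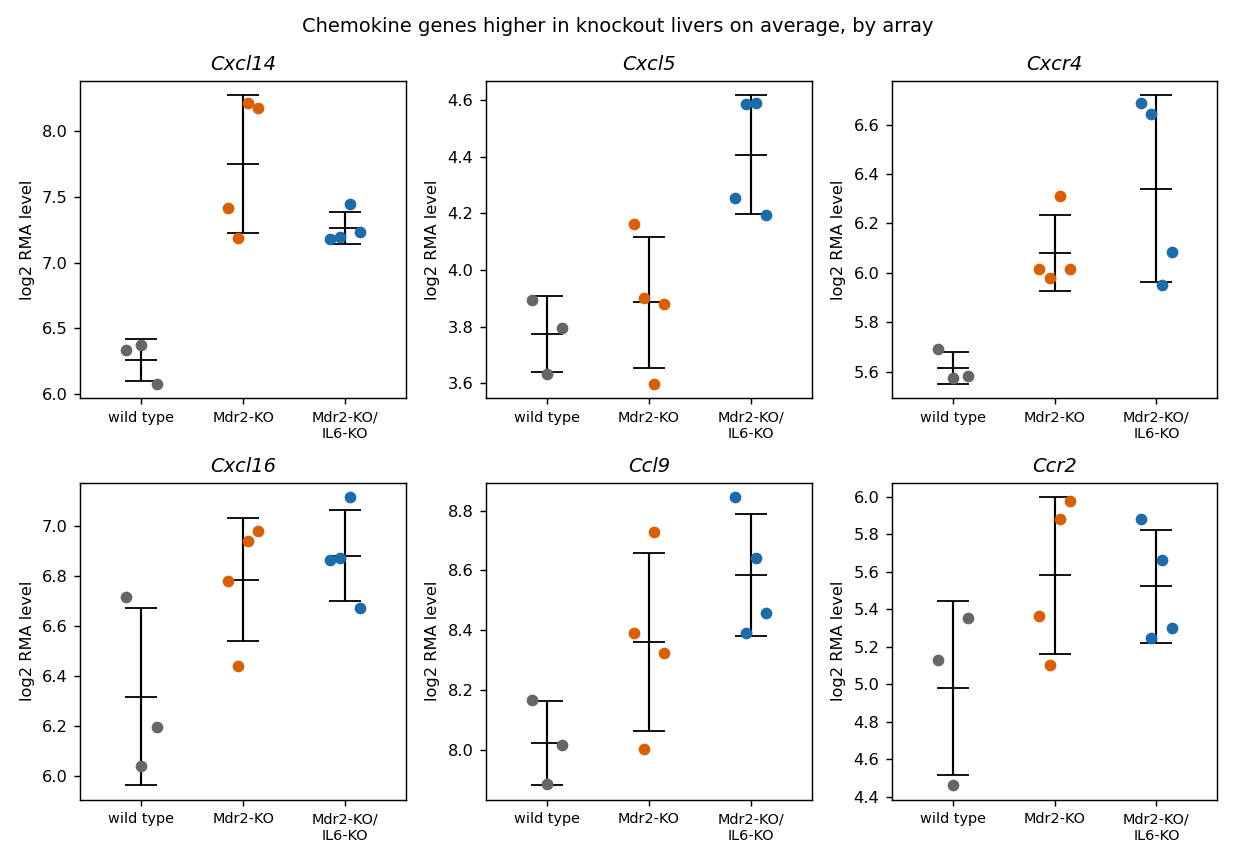
Log2 RMA level (vertical axis) by array (points) in the 3 groups for 6 genes with a higher mean in both knockout groups; horizontal marks are group means and bars the SD. For Cxcl14 and Cxcr4 all 8 knockout arrays lie above the 3 wild-type arrays, while for Cxcl5 the 4 double-knockout arrays lie above both other groups and the single-knockout arrays overlap wild type.

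The other CXC and CX3C ligands outside the inflammatory groups were Cxcl12, Cxcl13, Cxcl16 and Cx3cl1. Cxcl16 and Cx3cl1, the chemokines made as membrane-bound proteins and shed by ADAM proteases, both had higher means in the knockouts without passing the threshold. Cxcl16 read 6.72, 6.04 and 6.19 on the wild-type arrays, 6.78, 6.44, 6.94 and 6.98 on the single-knockout arrays, and 6.86, 6.87, 7.12 and 6.67 on the double-knockout arrays. Wild-type replicate 1 lay among the knockout arrays and the other two lay below all 8.

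The log2 change of Cxcl16 was 0.47 ± 0.17 SE in Mdr2-KO (limma adjusted p = 0.308) and 0.56 ± 0.17 SE in Mdr2-KO/IL6-KO (0.0867). Without wild-type replicate 1 the latter was 0.76 (adjusted p = 0.0250), and it also passed without Mdr2-KO replicate 2 (0.04999). These were 2 of 17 alternatives, and without wild-type replicate 2 it was 0.43 (adjusted p = 0.308). Cx3cl1, the ligand of Cx3cr1 on monocytes, had log2 changes of 0.47 ± 0.15 SE (limma adjusted p = 0.230) and 0.46 ± 0.15 SE (0.135). Without wild-type replicate 1 both comparisons called Cx3cl1, at 0.69 (adjusted p = 0.0282) and 0.68 (0.0148), the only 1 of 16 alternatives that did. Without wild-type replicate 2 the changes were 0.31 (adjusted p = 0.627) and 0.30 (0.440). Wild-type replicate 1 read 5.53 for Cx3cl1 and the other wild-type arrays 4.77 and 4.99, against 5.37 to 5.80 over all knockout arrays.

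Cxcl12, the homeostatic ligand of Cxcr4, had the highest mean signal of the 34 probe sets, 9.11 over all arrays. It read 9.0, 9.16 and 9.29 on the wild-type arrays, 9.36, 8.93, 9.18 and 9.33 on the single-knockout arrays, and 8.90, 8.93, 8.99 and 9.20 on the double-knockout arrays. The 3 groups overlapped. Its log2 change was 0.05 (95% interval -0.21 to 0.30) in Mdr2-KO and -0.15 (-0.40 to 0.11) in Mdr2-KO/IL6-KO against wild type.

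Cxcl13, which draws B cells into follicles, was the most scattered of the family within wild type, with an SD of 1.11. It read 7.70, 8.56 and 6.36 on the wild-type arrays, 6.44, 7.87, 6.56 and 6.77 on the single-knockout arrays, and 6.11, 6.93, 5.80 and 6.22 on the double-knockout arrays. The groups overlapped, and the log2 change of -1.27 ± 0.45 SE in the double knockout did not pass (limma adjusted p = 0.162). Without wild-type replicate 3 it was -1.86 and passed (adjusted p = 0.0246), in 1 of 17 alternatives. Without wild-type replicate 2 it was -0.76 (adjusted p = 0.502). None of 5 markers of B and plasma cells was called in any comparison, with summed levels of 164 to 191 in wild type, 125 to 206 in the single and 106 to 152 in the double knockout, and their part in the level of Cxcl13 was not tested.

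The ligands of CXCR3, the receptor of effector T and NK cells, form a group of 3: Cxcl9, Cxcl10 and Cxcl11, all induced by interferons. All 3 had lower means in both knockout groups, and none passed the threshold. Among all genes 0.316% were called lower in the single and 1.28% in the double knockout. In the RefSeq table for the C57BL/6J assembly Cxcl11 is annotated as a transcribed pseudogene, and the other 33 genes as protein coding.

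Cxcl9, induced mainly by interferon gamma, read 8.47, 6.87 and 8.55 on the wild-type arrays, 5.94, 6.34, 7.62 and 6.78 on the single-knockout arrays, and 6.35, 6.42, 6.78 and 6.62 on the double-knockout arrays. Wild-type replicates 1 and 3 lay above all 8 knockout arrays, while replicate 2 lay below Mdr2-KO replicate 3 and just above the double knockouts. The log2 change was -1.30 ± 0.40 SE in Mdr2-KO (limma adjusted p = 0.183) and -1.42 ± 0.40 SE in Mdr2-KO/IL6-KO (0.0664).

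Cxcl10, induced by type I and II interferons, read 7.43, 6.25 and 7.34 on the wild-type arrays, 6.30, 5.65, 6.38 and 6.34 on the single-knockout arrays, and 6.55, 6.08, 6.48 and 6.60 on the double-knockout arrays. Wild-type replicate 2 again lay among the knockout arrays and the other two above them. The log2 change was -0.84 ± 0.26 SE in Mdr2-KO (limma adjusted p = 0.184) and -0.58 ± 0.26 SE in Mdr2-KO/IL6-KO (0.294).

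Cxcl11 read 5.97, 5.86 and 6.10 on the wild-type arrays, 5.38, 5.43, 5.66 and 5.56 on the single-knockout arrays, and 5.53, 5.58, 5.26 and 5.85 on the double-knockout arrays. Its arrays did not overlap between wild type and either knockout group, as was so for 9.13% of all genes (3.64% lower) in the single knockout and 16.3% (6.44% lower) in the double knockout. The log2 change was -0.47 ± 0.13 SE in Mdr2-KO (limma adjusted p = 0.107) and -0.43 ± 0.13 SE in Mdr2-KO/IL6-KO (0.0847). The latter passed in 2 of 17 alternatives, among genes brighter than the median gene (adjusted p = 0.0483) and without double-knockout replicate 4 (0.0257). Without wild-type replicate 3 its adjusted p was 0.288.

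Cxcl9 and Cxcl10 passed in both comparisons when wild-type replicate 2 was left out. Without it Cxcl9 was called lower in Mdr2-KO (log2 change -1.84, adjusted p = 0.0269) and in Mdr2-KO/IL6-KO (-1.97, 0.00860), and Cxcl10 likewise (-1.21, 0.0184, and -0.95, 0.0246). Cxcl9 in the double knockout also passed among genes brighter than the median gene (adjusted p = 0.0456), with only the 2 groups compared (0.0424) and without Mdr2-KO replicate 3 (0.0315). Between the knockout groups the log2 changes of Cxcl9, Cxcl10 and Cxcl11 were -0.12 (95% interval -0.91 to 0.67), 0.26 (-0.25 to 0.77) and 0.05 (-0.20 to 0.30), with adjusted p = 0.9995 in the limma fit for each.

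Markers of T and NK cells were read beside these ligands. Of 12 measured, 3 fell in Mdr2-KO/IL6-KO, where 1.28% of all genes were called lower, and none was called in Mdr2-KO. In Mdr2-KO/IL6-KO 10 had a negative change and 2 a positive one, Klrb1c and Il7r. Klrb1c averaged 2.43, 2.82 and 2.80 and Il7r 4.25, 4.61 and 4.53 in wild type, Mdr2-KO and Mdr2-KO/IL6-KO. For both, every knockout array lay above wild type. The summed linear level of the 12 by array was 543, 317 and 372 in wild type, 281, 302, 375 and 320 on the single-knockout arrays, and 277, 269, 318 and 265 on the double-knockout arrays. Wild-type replicate 2, the lowest wild-type array for Cxcl9 and Cxcl10, was also the lowest of wild type here, and Mdr2-KO replicate 3 the highest of its group both here and for Cxcl9. The part of these cells in the levels of the CXCR3 ligands was not tested.

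Cxcr3, their receptor, read 6.00, 5.53 and 5.64 on the wild-type arrays, 5.78, 5.70, 5.76 and 5.98 on the single-knockout arrays, and 5.50, 5.54, 5.68 and 5.47 on the double-knockout arrays. All 4 double-knockout arrays lay below all 4 Mdr2-KO arrays, which was so for 0.908% of all genes, and the log2 change of -0.26 ± 0.11 SE did not pass (limma adjusted p = 0.9995). The test of whether receptor and ligands differ in their changes was not run.

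The windows upstream of Cxcl9 and Cxcl10 are set side by side because these genes, with Art3 between them on chromosome 5, both had lower means in the knockouts. They lie at chr5:92328080-92328329 and chr5:92348890-92349139 (GRCm38.p6, minus strand for both), with capitals for matches to the ISRE letters or to those of an AP-1 site (TGANTCA).
Cxcl9: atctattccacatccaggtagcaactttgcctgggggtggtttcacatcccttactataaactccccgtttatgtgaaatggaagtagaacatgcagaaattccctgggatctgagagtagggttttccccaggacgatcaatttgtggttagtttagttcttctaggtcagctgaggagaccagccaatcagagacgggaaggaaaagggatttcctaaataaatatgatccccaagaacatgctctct
Cxcl10: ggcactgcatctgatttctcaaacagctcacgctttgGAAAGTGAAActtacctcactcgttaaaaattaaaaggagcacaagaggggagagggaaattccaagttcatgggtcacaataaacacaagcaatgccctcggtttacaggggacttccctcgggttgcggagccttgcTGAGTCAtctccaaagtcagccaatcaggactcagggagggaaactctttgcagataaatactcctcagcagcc
In Cxcl10 the ISRE letters lie 213 to 204 bases before the start and the AP-1 letters 74 to 68. The Cxcl9 window holds none of the 4 sets of letters searched, which were NF-kB (GGG, any 2 bases, TTTCC), GAS, ISRE and AP-1, and this says only that these letters are not in it. Matches of different motifs did not overlap in any window shown.

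**Figure D3:**
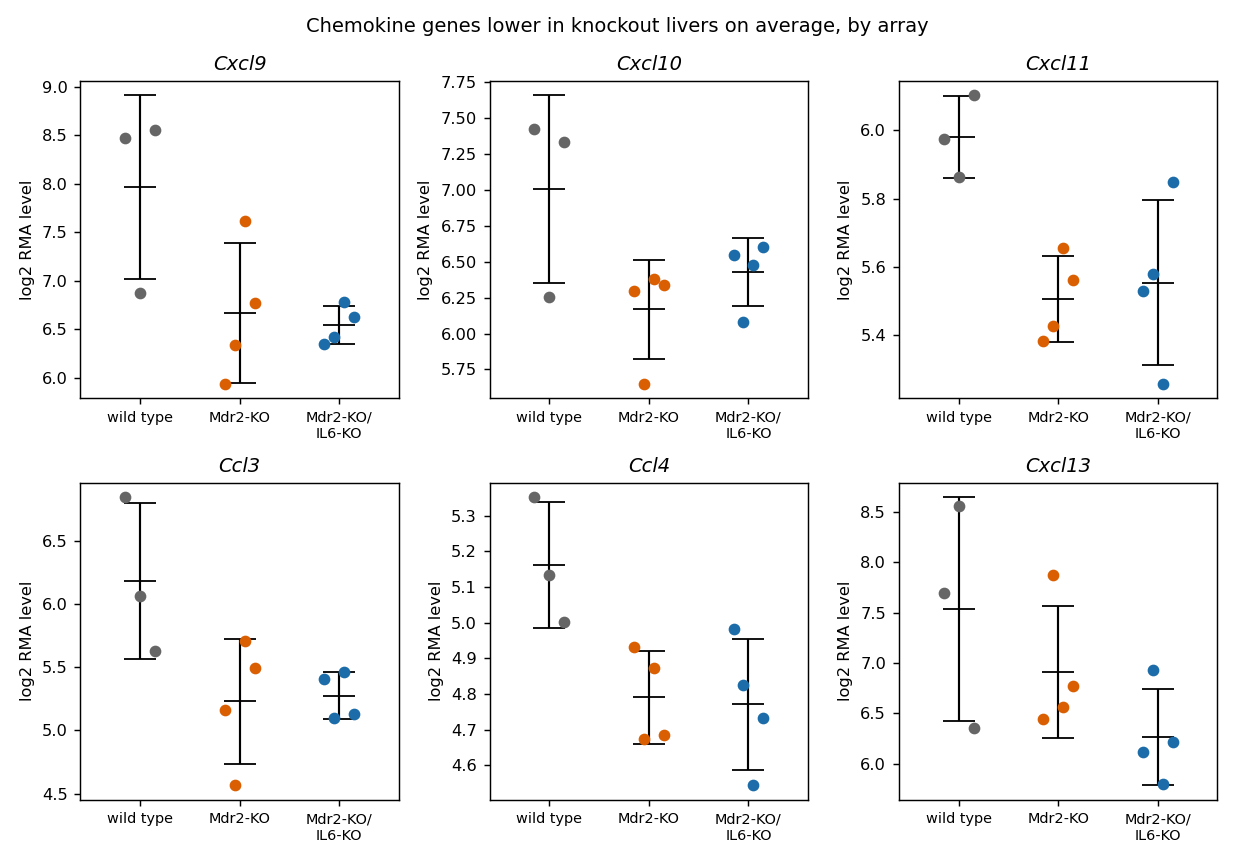
Log2 RMA level (vertical axis) by array (points) in the 3 groups for 6 ligands with a lower mean in both knockout groups; horizontal marks are group means and bars the SD. In Cxcl9 and Cxcl10, 1 wild-type array lies among the knockouts, whereas in Cxcl11 all 3 lie above them.

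The neutrophil-attracting ligands Cxcl1, Cxcl2 and Cxcl5, which signal through Cxcr2, gave 1 call between them. Cxcl5 read 3.90, 3.63 and 3.79 on the wild-type arrays, 4.16, 3.90, 3.60 and 3.88 on the single-knockout arrays, and 4.26, 4.59, 4.59 and 4.20 on the double-knockout arrays. Wild type and Mdr2-KO overlapped, and all 4 double-knockout arrays lay above both.

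Cxcl5 rose 1.55-fold in Mdr2-KO/IL6-KO against wild type (log2 change 0.63 ± 0.14 SE, limma adjusted p = 0.0199), from a low signal. Against Mdr2-KO it was 0.52 ± 0.13 SE higher on the log2 scale, the lowest p of the 34 genes between the knockout groups, and did not pass (limma adjusted p = 0.635); 1.60% of all genes had double-knockout arrays all above Mdr2-KO. The call against wild type ended without wild-type replicate 2 (adjusted p = 0.0933), wild-type replicate 3 (0.0646), or double-knockout replicate 2 (0.0627) or 3 (0.0623). It could not be read among genes brighter than the median gene, since Cxcl5 is dimmer.

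Cxcl1, also an acute-phase gene of hepatocytes, read 8.14, 7.23 and 7.23 on the wild-type arrays, 7.22, 7.06, 8.88 and 7.14 on the single-knockout arrays, and 6.86, 6.39, 7.07 and 6.91 on the double-knockout arrays. Wild-type replicate 1 and Mdr2-KO replicate 3 stood above the rest of their groups. For Cxcl1 the double-knockout arrays all lay below wild type, as did those of 6.44% of all genes. Its log2 change was 0.04 ± 0.37 SE in Mdr2-KO and -0.72 ± 0.37 SE in Mdr2-KO/IL6-KO (limma adjusted p = 0.990 and 0.397), and -0.77 ± 0.35 SE between the knockout groups (0.9995).

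Cxcl2 was higher on average in both knockout groups, by 0.29 ± 0.11 SE and 0.26 ± 0.11 SE on the log2 scale (limma adjusted p = 0.315 and 0.229). It read 4.13, 3.82 and 3.98 in wild type, 4.16 to 4.34 in Mdr2-KO, and 4.05 to 4.38 in Mdr2-KO/IL6-KO. The Mdr2-KO arrays lay above wild type, as did those of 5.49% of all genes, and the double knockouts overlapped wild type.

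Of 8 markers of neutrophils none was called in any comparison, and none was brighter than the median gene. All 8 had a negative change in Mdr2-KO/IL6-KO against wild type, as did 10010 of the 19938 genes. The summed level of the 8 was 191 to 243 in wild type, 188 to 230 in Mdr2-KO and 168 to 193 in Mdr2-KO/IL6-KO. Cxcr2, the neutrophil receptor for these ligands, had log2 changes whose 95% intervals spanned 0 in all 3 comparisons.

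The windows of Cxcl1 and Cxcl2 are shown because these adjacent genes, whose mean changes in the double knockout were of opposite sign without passing, each carry 2 matches to the NF-kB letters. They lie at chr5:90890995-90891244 and chr5:90903649-90903898 (GRCm38.p6, plus strand for both), with capitals for those matches on either strand.
Cxcl1: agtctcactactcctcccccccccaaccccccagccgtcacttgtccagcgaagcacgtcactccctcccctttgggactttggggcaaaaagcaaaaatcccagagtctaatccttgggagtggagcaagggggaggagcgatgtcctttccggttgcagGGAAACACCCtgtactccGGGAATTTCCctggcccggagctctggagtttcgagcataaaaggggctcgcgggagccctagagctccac
Cxcl2: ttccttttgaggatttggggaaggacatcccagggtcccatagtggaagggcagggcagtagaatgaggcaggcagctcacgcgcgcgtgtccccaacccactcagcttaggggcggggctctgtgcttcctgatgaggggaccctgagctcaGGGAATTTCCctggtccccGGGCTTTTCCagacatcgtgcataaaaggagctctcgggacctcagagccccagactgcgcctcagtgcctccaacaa
In Cxcl1 they lie 89 to 80 and 71 to 62 bases before the start, and in Cxcl2 97 to 88 and 78 to 69. The run GGGAATTTCC occurs in both. The NF-kB letters are held by 1.65% of the 27025 genes with a window. Of the 25 listed genes with a window 4 hold them: Cxcl1, Cxcl2, Ccl9 and Ccl20. Other spellings of an NF-kB site were not searched, so the remaining windows may hold such sites.

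Inflammatory CC ligands, of which 9 were listed, had no member called in any comparison. Against wild type the median log2 change was -0.24 in the single and -0.07 in the double knockout. At an unadjusted p under 0.05, 1 was higher and 2 lower in Mdr2-KO, and 1 higher and 3 lower in Mdr2-KO/IL6-KO, when 5.69% and 9.40% of all genes were higher and 4.09% and 6.10% lower.

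Ccl9, a CCR1 ligand made by myeloid cells, read 8.17, 7.89 and 8.02 on the wild-type arrays, 8.39, 8.01, 8.73 and 8.32 on the single-knockout arrays, and 8.84, 8.39, 8.64 and 8.46 on the double-knockout arrays. The double-knockout arrays all lay above wild type, as did those of 9.85% of all genes, and Mdr2-KO replicate 2 lay within the wild-type range. The log2 change was 0.34 ± 0.15 SE in Mdr2-KO (limma adjusted p = 0.502) and 0.56 ± 0.15 SE in Mdr2-KO/IL6-KO (0.0627), and the latter passed in 5 of 17 alternatives (adjusted p from 0.0269).

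Ccl3 and Ccl4, the macrophage inflammatory proteins, were lower on average. They were chosen for description after their values were seen. Ccl3 read 6.85, 6.07 and 5.63 on the wild-type arrays, 5.16, 4.56, 5.70 and 5.49 on the single-knockout arrays, and 5.41, 5.10, 5.46 and 5.13 on the double-knockout arrays. Only Mdr2-KO replicate 3 reached the wild-type range, and the double-knockout arrays all lay below it, as did those of 6.44% of all genes.

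The log2 change of Ccl3 was -0.95 ± 0.27 SE in Mdr2-KO (limma adjusted p = 0.148) and -0.91 ± 0.27 SE in Mdr2-KO/IL6-KO (0.0934). The latter passed without wild-type replicate 3 (-1.18, adjusted p = 0.0444) and without Mdr2-KO replicate 2 (0.0416), in 2 of 16 alternatives. Without wild-type replicate 1 it was -0.57 (adjusted p = 0.371). Ccl4 read 5.35, 5.13 and 5.0 in wild type and 4.54 to 4.98 over all knockout arrays, with log2 changes of -0.37 ± 0.12 SE and -0.39 ± 0.12 SE (limma adjusted p = 0.220 and 0.0971). All 8 knockout arrays lay below wild type for Ccl4.

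No difference was detectable for the monocyte chemokine Ccl2. It read 5.67, 5.21 and 5.45 on the wild-type arrays, 5.51, 5.45, 5.39 and 5.31 on the single-knockout arrays, and 5.81, 5.54, 5.46 and 5.15 on the double-knockout arrays, with all groups overlapping. Its 95% intervals for the log2 change were -0.34 to 0.27 in Mdr2-KO and -0.26 to 0.35 in Mdr2-KO/IL6-KO against wild type. Ccl6, Ccl7, Ccl8, Ccl11 and Ccl24, ligands for receptors of monocytes and eosinophils, had log2 changes between -0.43 and 0.03 over the comparisons with wild type, and none passed. For Ccl6, wild-type replicate 1 read 8.62 and the other two 7.24 and 7.08, while the knockout arrays ranged from 6.91 to 8.01.

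Homeostatic and other CC ligands had no member called. The 6 genes Ccl17, Ccl19, Ccl20, Ccl22, Ccl25 and Ccl28, which guide T cells, dendritic cells and mucosal lymphocytes, had log2 changes of -0.14 to 0.25 over the comparisons with wild type. Ccl17, a CCR4 ligand of dendritic cells, read 4.81, 4.68 and 4.54 on the wild-type arrays, 4.92, 5.13, 4.74 and 4.85 on the single-knockout arrays, and 5.05, 5.07, 4.85 and 4.75 on the double-knockout arrays, and its log2 change in the double knockout was 0.25 ± 0.12 SE (limma adjusted p = 0.318).

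Ccl19, the CCR7 ligand of lymphoid stroma, had wild-type arrays within 0.02 of one another, at 6.52, 6.53 and 6.54. It read 6.64, 6.58, 6.35 and 6.38 on the single-knockout arrays and 6.60, 6.70, 6.67 and 6.26 on the double-knockout arrays, on both sides of wild type. Its 5 probe sets gave log2 changes of -0.04 to -0.01 in Mdr2-KO and 0.03 to 0.05 in Mdr2-KO/IL6-KO against wild type. Ccl25 had 2 probe sets, which disagreed in sign in Mdr2-KO against wild type, at 0.11 and -0.07. Another 7 chemokine probe sets carried several symbols of the Ccl21 or Ccl27 families and were not used.

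Among the 8 receptors, Cxcr4 was the one called. It keeps haematopoietic cells and lymphocytes near Cxcl12 and is also carried by endothelial and stromal cells. It read 5.69, 5.58 and 5.58 on the wild-type arrays, 6.01, 5.98, 6.31 and 6.02 on the single-knockout arrays, and 6.69, 6.64, 5.95 and 6.08 on the double-knockout arrays. Every knockout array lay above every wild-type array, and double-knockout replicates 1 and 2 were the highest.

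Cxcr4 rose 1.65-fold in the double knockout (log2 change 0.72 ± 0.16 SE, limma adjusted p = 0.0241), and its change of 0.46 ± 0.16 SE in Mdr2-KO did not pass (0.301). Between the knockout groups it was 0.26 higher in the double knockout, with a 95% interval of -0.07 to 0.59. The call ended without any 1 of the wild-type arrays (adjusted p from 0.0645 to 0.0889), and without double-knockout replicate 1 (0.0682) or 2 (0.0711). Among all genes 2.91% were called higher in Mdr2-KO/IL6-KO and 0.948% in Mdr2-KO. Of 9 endothelial markers 3 rose in Mdr2-KO/IL6-KO and 1 in Mdr2-KO, and the others were not called. Their summed levels overlapped, at 1618 to 2027 in wild type, 1811 to 2288 in Mdr2-KO and 2007 to 2383 in Mdr2-KO/IL6-KO. The stellate and fibroblast markers, of which 6 of 9 rose in each knockout group, had summed levels of 746 to 909 in wild type and 1250 to 1757 over the knockout arrays. The part of either list in the change of Cxcr4 was not tested.

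Ccr2, the Ccl2 receptor of inflammatory monocytes, read 5.13, 4.46 and 5.35 on the wild-type arrays, 5.36, 5.11, 5.88 and 5.98 on the single-knockout arrays, and 5.88, 5.25, 5.67 and 5.30 on the double-knockout arrays. The groups overlapped, with wild-type replicate 2 the lowest of the 11. The log2 change was 0.60 ± 0.24 SE in Mdr2-KO (limma adjusted p = 0.398) and 0.54 ± 0.24 SE in Mdr2-KO/IL6-KO (0.298). Among 7 genes marking monocyte-derived and scar macrophages 3 rose in each knockout group, and the list was split. The share of all genes called higher was 0.948% for the single and 2.91% for the double knockout. Against wild type 3 of the 7 had a negative change in the single knockout and 2 in the double, down to -0.54. Every knockout array lay above wild type for Cd9, Gpnmb and Mmp12, while Chil3, Itgam, Plac8 and Trem2 overlapped it. The summed level of the 7 was 452 to 630, 695 to 1083 and 859 to 1178 in the order wild type, Mdr2-KO and Mdr2-KO/IL6-KO. Cd9 had the highest mean level of the 7 and so weighed most in that sum. The part of these genes in the level of Ccr2 was not tested.

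The other 6 receptors, Ccr1, Ccr6, Ccr7, Cxcr2, Cxcr3 and Cxcr6, had log2 changes of -0.22 to 0.12 over the comparisons with wild type. Ccr1, which binds Ccl3 and Ccl9, had the lowest mean signal of the 34 probe sets, 3.11. Of the 8 receptors 2 were brighter than the median gene, and no detection calls were used for the others. Of the 34 genes 14 were brighter than the median gene, whose level was 5.57.

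The wild-type arrays differed among themselves. Wild-type replicate 1 was the highest of the 3 for 20 of the 34 genes, against 32.2% of all genes, and replicate 2 the lowest for 19, against 29.8%. Kupffer cell and macrophage markers had summed levels of 5298, 3389 and 2001 in wild-type replicates 1, 2 and 3, wider than the 2228 to 3307 over the 8 knockout arrays. None of the 10 was called in any comparison, and their part in the wild-type spread was not tested.

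**Figure D4:**
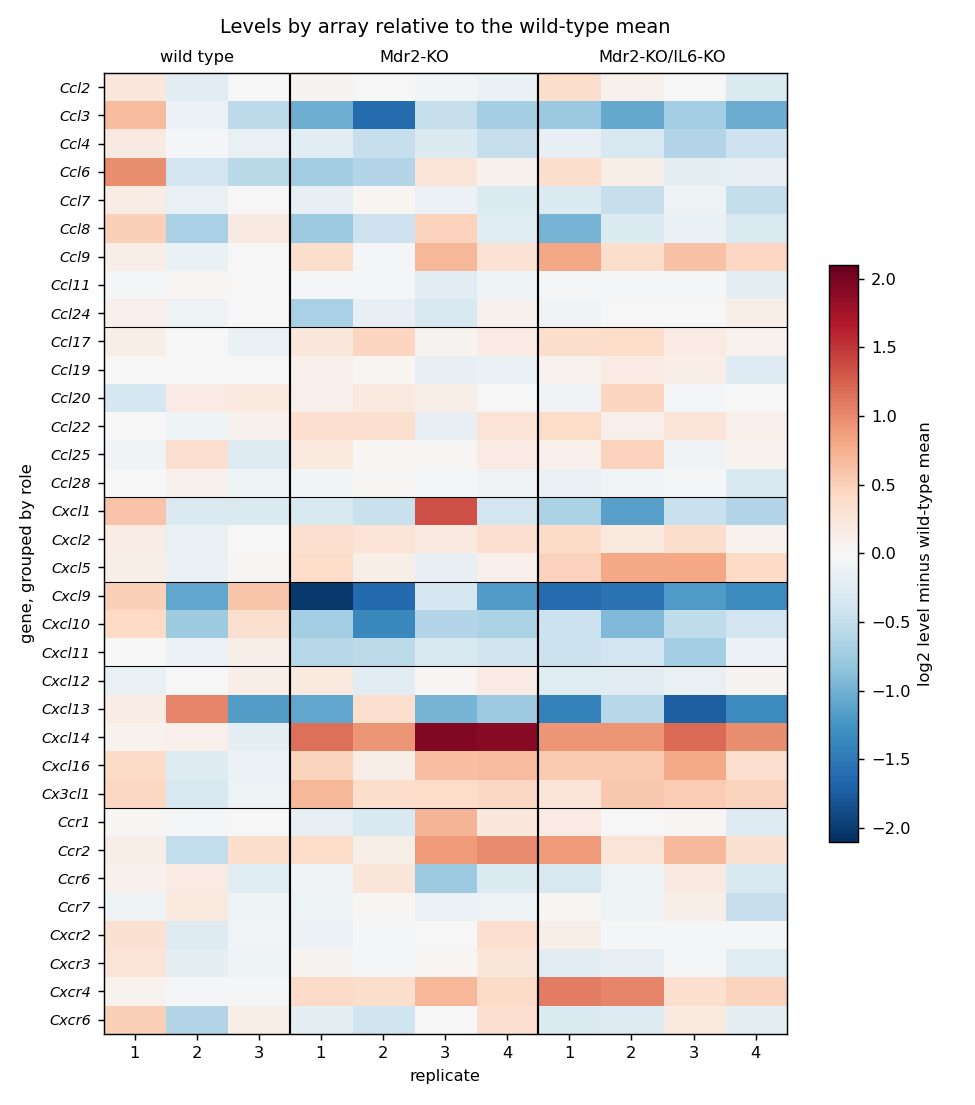
Log2 level of each of the 34 genes (rows, by role) on each of the 11 arrays (columns, replicate numbers within groups) minus the wild-type mean of that gene; red is higher and blue lower. Cxcl14 and Cxcr4 are red in all 8 knockout columns, Cxcl9 and Cxcl10 blue in them and also in wild-type replicate 2.

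Other genes of the pathway were read from 4 lists. Of 10 other ligands measured none was called in Mdr2-KO and 2 fell in Mdr2-KO/IL6-KO, where 1.28% of all genes were called lower. Ccl5, a chemokine made by T cells, read 8.96, 7.59 and 8.18 on the wild-type arrays, 6.83, 7.04, 8.06 and 7.05 on the single-knockout arrays, and 7.04, 6.54, 7.14 and 6.42 on the double-knockout arrays. Its 4 double-knockout arrays lay below wild type, as was so for 6.44% of all genes. Of its single-knockout arrays, replicate 3 alone reached the wild-type range.

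Ccl5 fell 2.75-fold in the double knockout (log2 change -1.46 ± 0.32 SE, limma adjusted p = 0.0207), and its change in Mdr2-KO was -1.0 ± 0.32 SE (0.220). The platelet chemokine Ppbp fell 1.75-fold in the double knockout (log2 change -0.81 ± 0.18 SE, limma adjusted p = 0.0232). The call of Ccl5 ended in 5 of 17 alternatives, at most at an adjusted p of 0.101 without wild-type replicate 1, and that of Ppbp in 4 of 16, at most at 0.113 without the same array.

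Of 14 other receptors none was called, and the one with the lowest p against wild type was Cx3cr1, at log2 changes of 0.52 ± 0.19 SE and 0.46 ± 0.19 SE (limma adjusted p = 0.319 and 0.246). Of 22 genes of receptor signalling and chemokine processing 2 rose in Mdr2-KO/IL6-KO, where 2.91% of all genes were called higher, and none was called in Mdr2-KO. Dpp4, the protease that trims the ends of many chemokines, rose 1.39-fold (log2 change 0.48 ± 0.10 SE, limma adjusted p = 0.0119), with all 4 arrays above wild type. Gnai2, the inhibitory G protein subunit that chemokine receptors use in leukocytes, rose 1.30-fold (log2 change 0.38 ± 0.09 SE, limma adjusted p = 0.0288). The call of Dpp4 ended without wild-type replicate 1 (adjusted p = 0.0638) or 3, and that of Gnai2 in 6 of 17 alternatives, at most at 0.148 without wild-type replicate 3.

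Of 20 cytokines and factors that induce chemokines 1 rose in Mdr2-KO/IL6-KO, where 2.91% of all genes were called higher. It was Nfkb2, a subunit of the alternative NF-kB pathway, at 1.30-fold (log2 change 0.38 ± 0.10 SE, limma adjusted p = 0.0415). That call ended in 10 of 17 alternatives, at most at an adjusted p of 0.186 without wild-type replicate 3. In Mdr2-KO the lowest p was that of Ltb, the lymphotoxin beta subunit, at a log2 change of 0.40 ± 0.11 SE (limma adjusted p = 0.0986). Il1b, a macrophage cytokine, had lower means in both knockout groups, by log2 changes of -0.93 ± 0.29 SE and -1.0 ± 0.29 SE (limma adjusted p = 0.196 and 0.0779). None of the 66 genes of the 4 lists was called between the knockout groups, where the lowest p in each list were those of Ppbp, Ccr3, Dpp4 and Ltb, all at an adjusted p of 0.9995.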

How the data were processed

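Liver RNA was measured on 11 Affymetrix gene arrays. The deposited values are log2 levels per probe set, and the authors' processing notes name Partek and RMA, so the deposited log2 values are RMA summaries per the labels; the genome build behind the probe sets is not given in the sources used here. Of 35557 probe sets, 21789 had 1 gene symbol, 1621 several and 12147 none; those with 1 symbol gave 19938 genes, of which 19856 matched RefSeq. Symbols were updated by Entrez ID. limma 3.58.1 in R 4.3.3 fitted a mean per group to the 11 arrays, with eBayes, two-sided tests and Benjamini-Hochberg adjustment. Summed levels add linear values (2 to the log2 level) of a marker list. The fit was tested on simulated data.

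The 34 genes, the roles and the lists were chosen with earlier results of these data known. Array values were printed for each of the 34 genes that was called. Per role, they were printed for the gene of lowest p over all comparisons and that of highest mean signal. The called genes of the other pathway lists were given by their changes, Ccl5 by array too. Ccl2, Ccl3, Ccl4, Ccl6, Cxcl2, Cxcl10, Cxcl13, Cxcl16, Cx3cl1, Ccr2, Cxcr3 and Il1b were chosen for description after their values were seen. No label states that each array is a separate mouse, so p-values measure the spread between these arrays, whose number limits the precision. Alternatives were averaging the probe sets of a gene, testing the brighter genes alone (mean above the median gene), centring arrays on their medians, quantile normalization, eBayes with trend and robust, the compared groups alone, and each array left out.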

Additional observations from a re-analysis of the deposited data

Results flagged for a closer look

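In 8 of 68 groups of 4 arrays, 1 array lay apart from the other 3 by Dixon's criterion, which chance alone meets in about 1 of 20 groups. In Mdr2-KO, replicate 3 was high for Cxcl1, at a log2 level of 8.88 against 7.06 to 7.22 in the others, and for Cxcr4, at 6.31 against 5.98 to 6.02, and low for Ccl22, at 3.76 against 4.21 to 4.27. Replicate 2 of Mdr2-KO was low for Cxcl10, at 5.65 against 6.30 to 6.38, and high for Ccr7, at 5.14 against 4.99 to 5.01. In Mdr2-KO/IL6-KO, replicate 4 was low for Ccl11, at 4.63 against 4.82 to 4.83. Replicate 2 was high for Ccl20, at 4.74 against 4.21 to 4.29. Replicate 1 was high for Cxcr2, at 3.63 against 3.47 to 3.49.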

How the results depend on the processing

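Of 1674 gene values recomputed under the alternatives, 1563 kept their direction and side of the threshold, 21 gained a call, 12 lost one and 78 values without a call moved. The count of all genes called in Mdr2-KO against wild type was 252, 138 with only the groups compared, and 148 to 323 with 1 array left out. Its count of CXC and CX3C ligands was 1, and 1 to 3 with 1 array left out. Between the knockout groups 1 gene was called, 4 among genes brighter than the median gene, 2 with median centring, 2 with trend and robust eBayes, and 1 to 5 with 1 array left out. In Mdr2-KO/IL6-KO against wild type 836 genes were called, and 464 to 989 with 1 array left out. There the CC ligands had 0 calls, 1 each among brighter genes, with trend and robust eBayes and with only the groups compared, and 0 to 2 with 1 array left out. The CXC and CX3C ligands had 2 calls and 0 to 3 with 1 array left out, and the receptors 1 and 0 to 1. No paired analysis was possible because the labels give no replicate numbers that tie arrays of different groups. The cause of these differences was not tested.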
